A study of Mus musculus with 3 samples.

Results

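The genes described here are 39 interferon-responsive genes of the mouse, measured in the gastrocnemius, a calf muscle made up largely of fast fibres. They were chosen by gene symbol: every probe set whose symbol in the platform annotation was one of the 39 names was taken. The rule itself uses no measured value, but the list of names was drawn up with earlier results of these data known. Of the 39 genes, 37 had at least 1 probe set annotated to them alone, 55 probe sets in all of the 45037 measured. A probe set was kept as bright enough when its percentile rank within an array, averaged over the 3 arrays, was 50 or more; 41 of the 55 passed, and they covered 31 genes, of 11092 genes kept on the arrays as a whole. All counts below are over those 31 genes unless stated.

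The study set 3 Affymetrix whole-genome mouse arrays side by side, which carried RNA from mice given tamoxifen for 48 h, mice given tamoxifen for 24 h and mice given oil for 24 h. All mice, the oil controls included, were of strain C57BL/CD1 with the genotype label Akt_Cre transgenic, and per the labels they carried Akt, a kinase of the insulin pathway, fused to an oestrogen-binding domain and expressed in skeletal muscle. Tamoxifen is said there to stabilise the fusion, after which the muscle enlarges. A single array stands for each group, hybridised with a pool of RNA from 3 to 4 mice. No value therefore has a replicate error, no test between groups was possible and no p-value is given. No 48 h oil array and no tamoxifen-treated mice without the fusion were analysed here, so tamoxifen itself and Akt cannot be told apart in any comparison with oil. Time is matched between tamoxifen 24 h and oil, but time and treatment cannot be told apart between tamoxifen 48 h and oil. The ages of the mice and the promoter that drives the fusion are not given in the sources used here.

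Interferons are secreted proteins released when a cell senses viral nucleic acid or when lymphocytes are activated. Type I interferons bind a receptor that switches on a complex that holds the factors STAT2 and IRF9 and binds a DNA element named ISRE. Interferon gamma uses a separate receptor and acts at an element named GAS. The genes switched on encode sensors of viral RNA, antiviral effectors, GTPases that attack pathogens inside cells, and more of the signalling factors themselves. A low level of many of these RNAs is present in uninfected tissue, including muscle and the macrophages and endothelium within it.

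The upstream windows of some of the genes, but not of all, hold the core of the ISRE, of the GAS or of both. RefSeq windows of 300 bases on GRCm38.p6, from 250 before to 50 after a gene's start, were at hand for 30 of the 39 genes. The core of the ISRE was searched as GAAA, any 2 bases and GAAA, or TTTC, any 2 bases and TTTC on the other strand. That of the GAS was searched as TTC, any 3 bases and GAA, which reads alike on both strands. The ISRE core stood in at least 1 window of 16 of the 30 genes (53.3%), against 3.99% of the 27025 genes with a window. The GAS core stood in 9 of the 30 (30.0%), against 9.55% of all genes, and 3 genes had both. In 1 window of the 30 genes the 2 motifs overlapped. A match is a string of letters and was not tested as a binding site. The windows shown are those of the genes that held the ISRE core and were at least 2-fold below oil on a tamoxifen array, and that of Igtp, the gene with the highest tamoxifen 24 h to oil ratio of the set. Capitals mark the ISRE core, and in Oas1a and Gbp3 a pair of matches overlap.
Ifit3, chr19:34583279-34583578, plus strand: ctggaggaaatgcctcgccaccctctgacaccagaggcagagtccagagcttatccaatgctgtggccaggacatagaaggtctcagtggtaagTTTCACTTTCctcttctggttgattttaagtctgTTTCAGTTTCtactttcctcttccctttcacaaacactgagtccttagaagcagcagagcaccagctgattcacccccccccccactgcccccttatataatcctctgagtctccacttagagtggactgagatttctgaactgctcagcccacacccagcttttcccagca
Oas1a, chr5:120907476-120907775, minus strand: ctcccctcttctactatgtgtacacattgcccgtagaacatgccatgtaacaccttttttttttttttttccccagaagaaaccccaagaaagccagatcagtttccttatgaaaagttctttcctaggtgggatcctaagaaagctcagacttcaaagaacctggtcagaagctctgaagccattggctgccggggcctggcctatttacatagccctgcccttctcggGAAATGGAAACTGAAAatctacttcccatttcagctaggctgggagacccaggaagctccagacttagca
Gbp3, chr3:142559794-142560093, plus strand: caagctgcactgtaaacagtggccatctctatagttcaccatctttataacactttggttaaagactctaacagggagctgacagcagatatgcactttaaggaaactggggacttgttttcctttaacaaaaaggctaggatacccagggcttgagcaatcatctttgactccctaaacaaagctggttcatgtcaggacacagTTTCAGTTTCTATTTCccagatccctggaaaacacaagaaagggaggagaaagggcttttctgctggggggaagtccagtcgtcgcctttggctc
Ifi203, chr1:173942443-173942742, minus strand: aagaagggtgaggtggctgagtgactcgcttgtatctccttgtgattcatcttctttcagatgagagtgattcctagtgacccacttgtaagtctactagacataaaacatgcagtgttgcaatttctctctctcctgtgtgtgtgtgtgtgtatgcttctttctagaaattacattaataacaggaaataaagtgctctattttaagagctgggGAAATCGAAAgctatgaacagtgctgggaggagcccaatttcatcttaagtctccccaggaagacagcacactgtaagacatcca
Igtp, chr11:58199306-58199605, plus strand: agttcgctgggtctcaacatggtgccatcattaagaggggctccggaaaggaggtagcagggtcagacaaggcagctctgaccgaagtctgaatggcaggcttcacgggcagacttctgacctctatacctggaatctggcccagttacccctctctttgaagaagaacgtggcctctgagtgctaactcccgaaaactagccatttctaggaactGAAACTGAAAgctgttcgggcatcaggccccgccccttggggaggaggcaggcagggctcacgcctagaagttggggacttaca
The matches began 156 and 122 bases before the start in Ifit3, 20 and 14 before it in Oas1a, 45 and 39 in Gbp3, 35 in Ifi203 and 34 in Igtp.

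The arrays read as muscle, and the interferon-responsive genes were dim on them. All 10 muscle markers chosen, among them Acta1, Ckm and Myh4, were kept, and their summed intensities were 73408 at tamoxifen 48 h, 70740 at tamoxifen 24 h and 73421 on oil. Intensities here are the deposited linear values, scaled so that the kept probe sets of all 3 arrays have the same median; the scaling factors were 1.05 for tamoxifen 48 h, 0.945 for tamoxifen 24 h and 1.01 for oil. The median interferon-responsive gene read 34.8 at tamoxifen 48 h, 44.2 at tamoxifen 24 h and 48.1 on oil, against 94.3, 96.9 and 92.9 for the median of all kept genes on the same arrays. Of the 31 genes, 22 had a mean rank below 75.

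Against oil, the median of the set lay towards lower readings on the tamoxifen arrays, but its genes went both ways. At tamoxifen 24 h, 18 of 31 had a log2 ratio to oil below 0 and 13 above, against 46.0% below of all kept genes. At tamoxifen 48 h, 20 were below 0 and 11 above, against 49.4% below of all kept genes. At tamoxifen 24 h, 6 of 31 genes were at least 2-fold lower than on oil and 0 were at least 2-fold higher; over all kept genes 2.48% were lower and 2.35% higher by the same rule. At tamoxifen 48 h, 4 of 31 were at least 2-fold lower and 0 higher, against 2.71% lower and 3.72% higher of all genes. Dim genes pass this rule more often: among kept genes with a mean rank of 50 to 75, 4.8% were lower at 24 h and 4.76% at 48 h, and 5 of the 22 interferon-responsive genes of that class were lower at 24 h and 4 of 22 at 48 h. The median log2 ratio over the 31 genes was -0.24 at 24 h (all genes 0.04) and -0.28 at 48 h (all genes 0.01). In the dim class alone it was -0.28 at 24 h (all genes of the class -0.06) and -0.51 at 48 h (all genes of the class -0.07). For the 9 brighter genes, with a mean rank of 75 or more, it was 0.00017 at 24 h (all genes of that class 0.08) and -0.10 at 48 h (0.05). Both comparisons share the 1 oil array, so a high reading of a gene on that array alone would lower both of its ratios. RNA of the whole muscle was measured, and fewer cells of a type and less RNA per cell cannot be told apart.

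**Figure D1:**
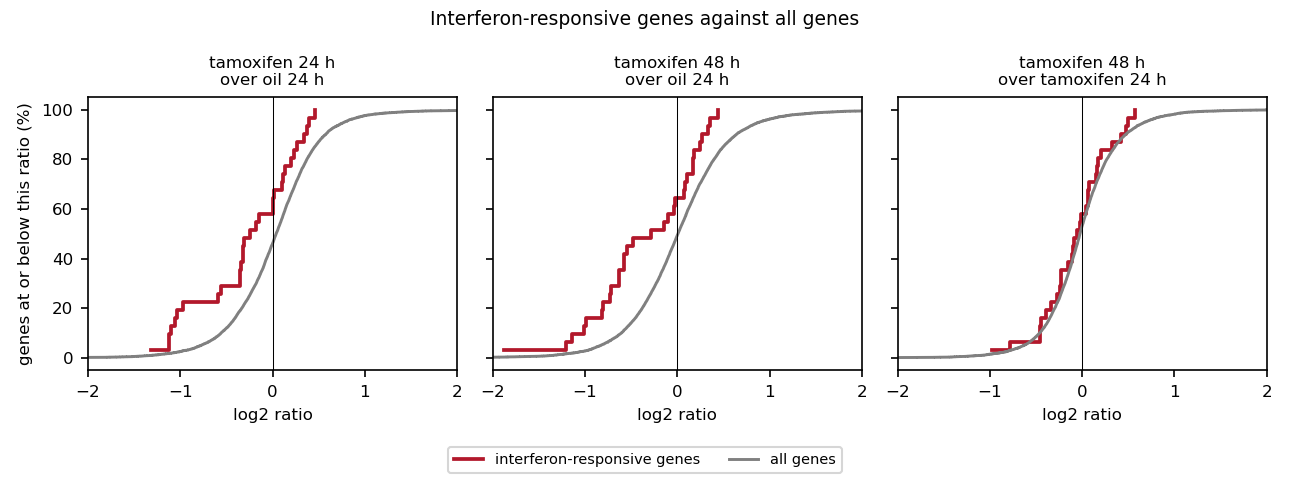
Cumulative share of genes (vertical axis, percent) at or below each log2 ratio (horizontal axis) for the 31 interferon-responsive genes (red) and all 11092 kept genes (grey), in each comparison. The red curve lies left of the grey one over most of its length in both comparisons with oil, and close to it for tamoxifen 48 h over 24 h.

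Between the tamoxifen arrays the median of the set lay close to that of all genes, and 18 of 31 genes were below 0, against 53.1% of all genes. None of the 31 genes was at least 2-fold different, against 1.8% higher and 1.42% lower of all genes, and the median log2 ratio of tamoxifen 48 h over 24 h was -0.05 (all genes -0.02). The lowest ratio was that of Ifi47 (-0.98) and the highest that of Ifi203 (0.58).

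**Figure D2:**
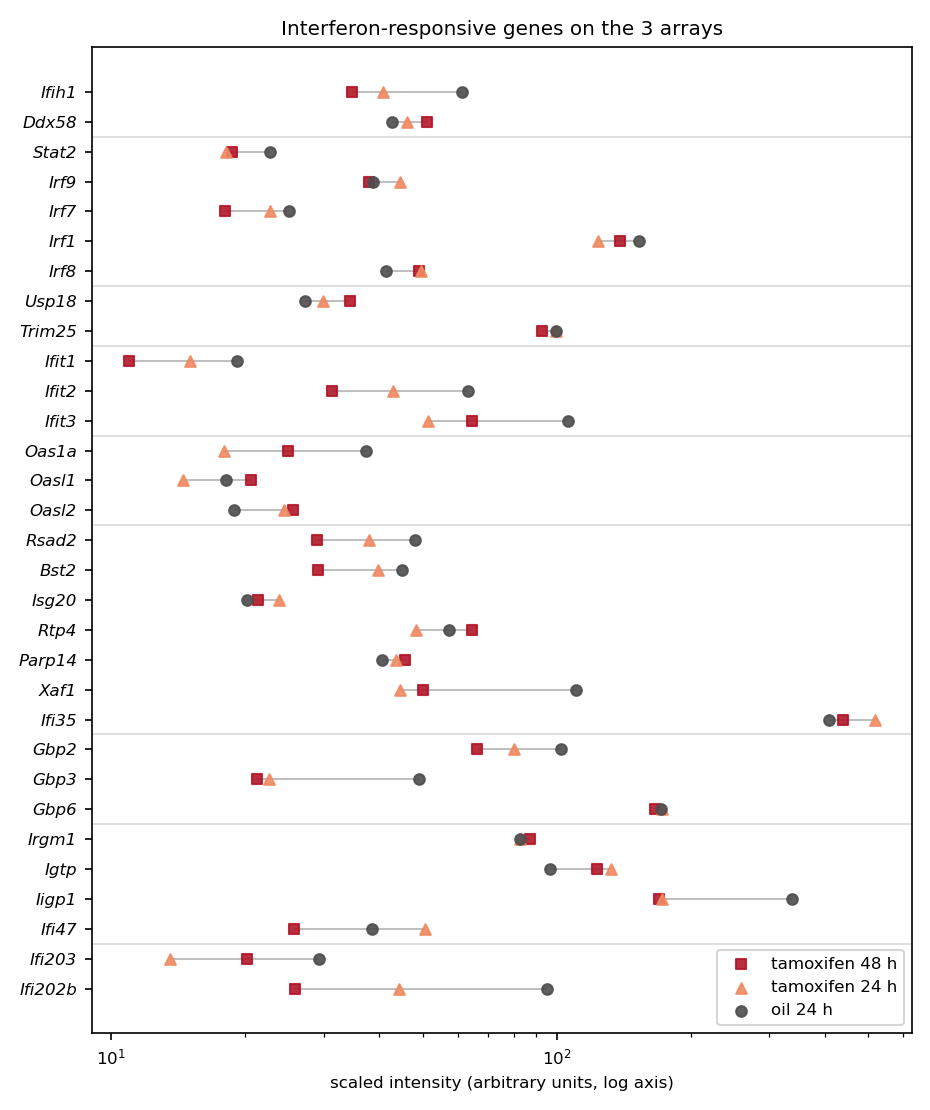
Scaled intensity (arbitrary units, log axis) of the 31 interferon-responsive genes with a kept probe set on the tamoxifen 48 h, tamoxifen 24 h and oil arrays, 1 symbol an array, grouped by role. Xaf1, Gbp3, Iigp1 and Ifi202b show the widest gaps between the oil array and both tamoxifen arrays.

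The 3 sensors of viral RNA are helicases of the cytosol. Ifih1 (MDA5, a sensor of long double-stranded RNA) read 34.8 at tamoxifen 48 h, 40.8 at tamoxifen 24 h and 61.3 on oil, 1.76-fold and 1.5-fold lower than oil. Ddx58 (RIG-I, a sensor of RNA ends) read 51.3, 46.1 and 42.6 on the same arrays, within 1.2-fold of oil. The oil array was thus the highest for one sensor and the lowest for the other. The 3 probe sets of Dhx58 (LGP2, a regulator of both) were all below the brightness filter, the brightest at 8.98, 6.90 and 7.42.

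The 5 transcription factors of the response were all within 1.39-fold of oil. Irf1, an early target of interferon gamma, read 139 at tamoxifen 48 h, 123 at tamoxifen 24 h and 153 on oil. Irf7, which amplifies the type I response, read 18.0, 22.7 and 25.1. Irf9, the DNA-binding partner of STAT2, read 37.9, 44.5 and 38.7. Of these 3, Irf1 and Irf7 were highest on oil and Irf9 at tamoxifen 24 h. Stat2 read 18.6, 18.1 and 22.7 on its kept probe set. Irf8, a factor of macrophages and dendritic cells, read 49.2, 49.6 and 41.3 on one probe set and 28.6, 28 and 26.7 on another. Median log2 ratios of the 5 factors were -0.15 at 24 h and -0.14 at 48 h.

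Isg15 encodes a ubiquitin-like protein that is joined to other proteins in the response. Its single probe set was annotated to several genes and was not read. Usp18, the protease that removes ISG15 and restrains the type I receptor, read 34.3 at tamoxifen 48 h, 29.8 at tamoxifen 24 h and 27.2 on oil, 1.26-fold and 1.10-fold higher. Trim25, a ubiquitin ligase that acts on RIG-I, read 92.9, 99.4 and 99.4 on its brightest probe set, and 2 others ranged in log2 ratio from -0.68 to 0.13 at 24 h. Neither gene was 2-fold different.

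The 3 IFIT genes, which encode proteins that bind foreign RNA and block its translation, were all highest on the oil array. All of them lie on chromosome 19 and each had 1 kept probe set. Ifit3 read 64.4 at tamoxifen 48 h, 51.5 at tamoxifen 24 h and 106 on oil, 1.64-fold and 2.06-fold lower than oil. Ifit2 read 31.3, 43.0 and 63.2, which is 2.02-fold lower at 48 h and 1.47-fold lower at 24 h. Ifit1 read 11.0, 15.1 and 19.2, 1.75-fold and 1.27-fold lower, and was the dimmest gene kept, at a mean rank of 50.6. Ifit3 was lowest at 24 h while Ifit1 and Ifit2 were lowest at 48 h. The median log2 ratios of the family were -0.56 at 24 h and -0.81 at 48 h. The 48 h median is the ratio of Ifit1 itself, which stood at percentile 44.0 of the tamoxifen 48 h array and 54.6 of the oil array. With the floor for ratios raised to the 50th percentile, the Ifit1 ratio at 48 h was -0.44.

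The OAS family makes a short messenger from ATP that switches on the RNA-cutting enzyme RNase L; the OAS-like proteins belong to the same family by sequence. Its members did not go one way. Oas1a read 25 at tamoxifen 48 h, 17.9 at tamoxifen 24 h and 37.4 on oil, 1.5-fold and 2.09-fold lower. Oasl2 read 25.6, 24.5 and 18.8, 1.36-fold and 1.30-fold higher than oil. Oasl1 read 20.6, 14.5 and 18.1. Of the family, the oil array was the highest for Oas1a alone among the 3 kept genes. Oas2 missed the filter narrowly, at a mean rank of 48.6, and read 5.04, 13.4 and 39.3, so that it stood 7.79-fold and 2.93-fold below oil. The 48 h reading of Oas2 was close to the floor of 4.05 used for ratios, the 25th percentile of all scaled values. Oas3 was at 4.41, 2.35 and 0.878.

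The Mx genes encode dynamin-like GTPases that trap viral particles, and Mx1 is defective in many inbred mouse strains. Both were below the filter, Mx1 at 5.80 at tamoxifen 48 h, 1.97 at tamoxifen 24 h and 2.14 on oil, and Mx2 at 8.74, 8.29 and 1.84. Cxcl10, a chemokine that attracts activated T cells, was also below it, with 15.7, 5.34 and 18.9. With Dhx58, Oas2 and Oas3, these 3 make up the 6 genes that had probe sets of their own but none above the filter.

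Other antiviral effectors were split. Rsad2 (viperin, which makes a chain-terminating nucleotide) read 29.0 at tamoxifen 48 h, 38.0 at tamoxifen 24 h and 48.1 on oil, 1.66-fold and 1.27-fold lower, and its other kept probe set read 11.5, 16.2 and 19.6 in the same order of arrays. Bst2 (tetherin, which holds budding virus at the cell surface) read 29.1, 39.7 and 44.9, 1.54-fold and 1.13-fold lower. Both were highest on oil and lowest at 48 h. Xaf1, which encodes a partner of an inhibitor of apoptosis, read 50.1, 44.4 and 111 on its brightest probe set, 2.21-fold and 2.49-fold lower than oil. Its other kept probe set read 43.8, 47.8 and 53.3, only 1.22-fold and 1.12-fold lower, so the size of the Xaf1 difference rests on 1 probe set. Ifi35, the brightest gene of the set, read 439, 517 and 409 on a probe set that can share probes with other transcripts, 1.07-fold and 1.27-fold higher than oil; its 2 other kept probe sets had log2 ratios of -0.11 and -0.22 at 48 h and -0.17 and -0.04 at 24 h. Rtp4 read 64.7, 48.4 and 57.3, Parp14 (an ADP-ribosyltransferase) 45.8, 43.6 and 40.5, and Isg20 (an RNA exonuclease) 21.3, 23.8 and 20.2, all within 1.18-fold of oil. Ifi44 had no probe set in the annotation used and was not analysed here.

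**Figure D3:**
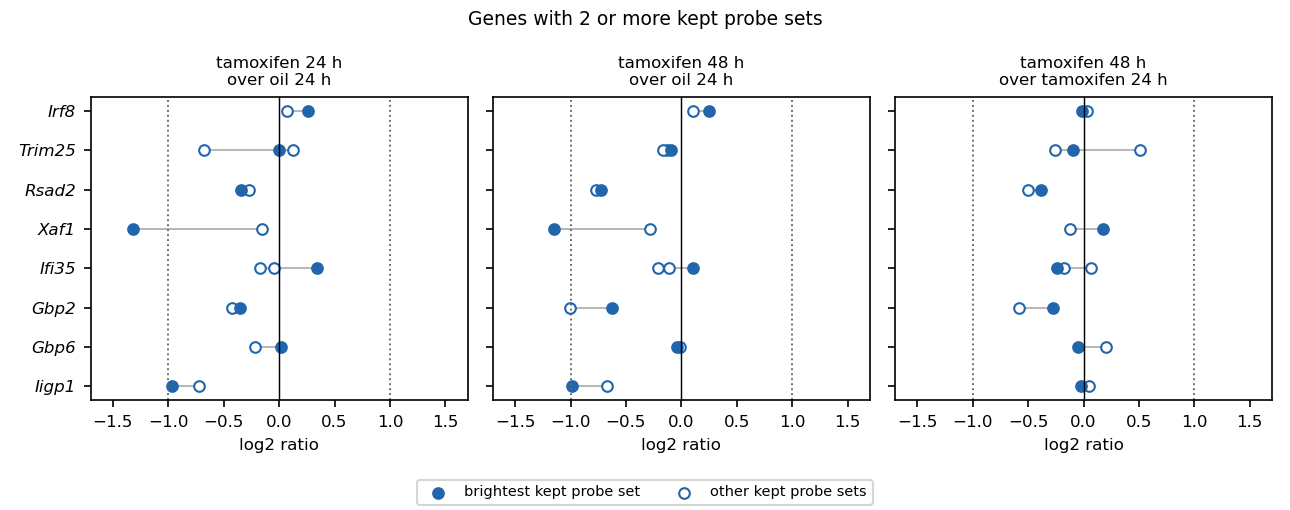
Log2 ratios of all kept probe sets of the 8 interferon-responsive genes that had 2 or more, in each comparison; filled circles are the brightest probe set and dotted lines mark 2-fold. The probe sets of Rsad2, Xaf1, Gbp2 and Iigp1 lie below 0 and those of Irf8 above 0 in both comparisons with oil, and the Xaf1 pair lies furthest apart there.

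Guanylate-binding proteins and immunity-related GTPases, both strongly induced by interferon gamma, attack the vacuoles of bacteria and parasites. Gbp3 read 21.3 at tamoxifen 48 h, 22.6 at tamoxifen 24 h and 49.1 on oil, 2.31-fold and 2.17-fold lower. Gbp2 read 66.3, 80.2 and 102, 1.55-fold and 1.28-fold lower, and its other kept probe set read 51.1, 76.3 and 102, 2.00-fold lower at 48 h. Gbp6 read 166, 172 and 171, within 1.03-fold of oil. Gbp2 and Gbp3, on chromosome 3, were thus highest on oil, while Gbp6, on chromosome 5, was level.

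Among the 4 immunity-related GTPases, only Iigp1 (Irga6, an effector) was below oil on both tamoxifen arrays. It read 170.1 at tamoxifen 48 h, 172 at tamoxifen 24 h and 338 on oil on its brightest probe set, 1.99-fold and 1.96-fold lower and just short of the 2-fold rule. Its other kept probe set, at 82.5, 79.6 and 132, was 1.6-fold and 1.65-fold lower. Irgm1, a regulator of the family, read 87.1, 82.9 and 82.9, within 1.05-fold of oil. Igtp (Irgm3), another regulator, read 123, 133 and 96.6, 1.28-fold and 1.37-fold higher than oil. Its window shown above carries the ISRE core, as those of Ifit3 and Gbp3 do. Ifi47 (Irgd) read 25.7, 50.6 and 38.5, 1.5-fold lower than oil at 48 h and 1.31-fold higher at 24 h. It was 1.97-fold lower at tamoxifen 48 h than at tamoxifen 24 h. None of the 4 was 2-fold different in any comparison on these values. Iigp1 passed 2-fold against oil after quantile normalization (-1.05 at 24 h and -1.06 at 48 h) and, at 48 h, on the unscaled values (-1.05). Ifi47 passed it for tamoxifen 48 h over 24 h under the same settings (-1.01 and -1.13).

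The HIN-200 genes of chromosome 1 encode proteins of the nucleus and cytosol that bind DNA, and their close copies make probe sets hard to assign. Ifi202b read 25.8 at tamoxifen 48 h, 44.2 at tamoxifen 24 h and 95.0 on oil. It was 3.68-fold lower at 48 h and 2.15-fold lower at 24 h, the lowest ratio of the 31 genes at 48 h, on a probe set of the kind that can share probes with other transcripts. Ifi203 read 20.2, 13.5 and 29.3 on its own kept probe set, 1.46-fold and 2.17-fold lower. Its other probe sets were annotated to several genes and were not read. Both genes were highest on oil, with Ifi202b lowest at 48 h and Ifi203 lowest at 24 h.

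**Figure D4:**
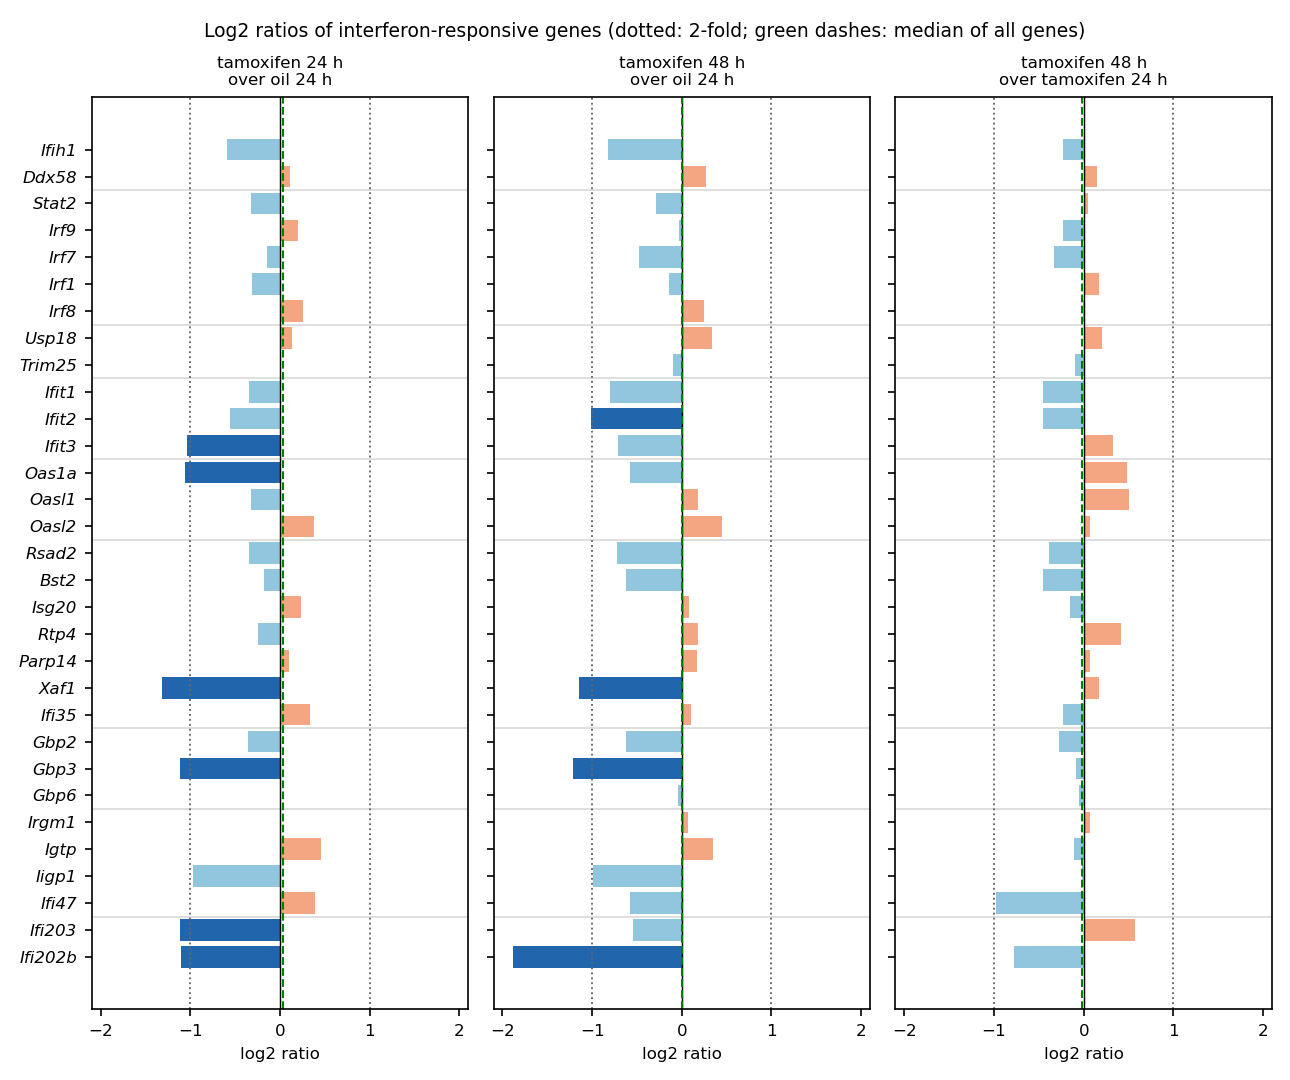
Log2 ratios of the 31 genes in each comparison, grouped by role; dark blue bars are at least 2-fold lower, light blue bars are below 0 and orange bars above 0, and the green dashes mark the median of all genes. Dark bars appear in both comparisons with oil, 6 at 24 h and 4 at 48 h, and in neither direction for tamoxifen 48 h over 24 h.

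Genes with and without the ISRE core in a RefSeq window gave different medians against oil but overlapped widely. The 13 kept genes with the core had a median log2 ratio of -0.35 at 24 h and -0.63 at 48 h, and 10 of 13 were below 0 in each. The 13 kept genes with a window but without the core had medians of 0.00017 and -0.10, with 6 and 8 of 13 below 0. The ratios with the core ran from -1.12 to 0.46 at 24 h, and those without it from -1.32 to 0.39. At 48 h they ran from -1.21 to 0.35 with it and from -1.88 to 0.44 without it. Genes at least 2-fold lower than oil at 24 h were 4 of 13 with the core and 2 of 13 without (2.48% of all genes). At 48 h the order was reversed, with 1 of 13 and 3 of 13 (2.71% of all genes). Ifit2, Xaf1 and Ifi202b, all at least 2-fold below oil at 48 h, had no ISRE core in the windows read, which says only that these letters are not there.

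Where a gene had several kept probe sets, they gave a technical yardstick for the sizes above. The brightest pair of probe sets of a gene differed by a median of 0.32 in log2 ratio at 24 h and 0.29 at 48 h over 5001 genes, and the 90th percentile was 0.99 and 0.86. Over the 8 interferon-responsive genes with such a pair the medians were 0.21 and 0.18, with the widest gap in Xaf1 (1.16 and 0.86). This spread does not measure variation between mice.

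The interferons themselves were not read above the filter. Of 19 interferon genes listed, 10 had a probe set of their own and 0 were kept; Ifng read 2.45 at tamoxifen 48 h, 0.836 at tamoxifen 24 h and 0.566 on oil, and Ifnb1 14.3, 5.83 and 18.0. Of 19 receptor and signalling genes with a probe set of their own, 15 were kept. Of the 15, 0 were 2-fold different at 24 h, against 2.35% higher and 2.48% lower of all genes. At 48 h, 1 was higher and 1 lower, against 3.72% higher and 2.71% lower of all genes. Jak2, a kinase of the interferon gamma receptor, read 89.1, 111 and 208 (2.33-fold and 1.86-fold lower than oil). Sting1, an adaptor of DNA sensing, read 24.8, 19.4 and 10.2 (2.43-fold and 1.90-fold higher). A second kept probe set of Sting1 went the other way at 48 h, with a log2 ratio of -1.07. Median log2 ratios of the 15 genes were -0.13 at 24 h and -0.20 at 48 h. The receptor chain Ifnar1 read 52.2, 64.3 and 81.6 on its brightest probe set, while its other kept one had log2 ratios of -0.80 at 24 h and 0.46 at 48 h. The kinase Jak1 read 629, 693 and 714.

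Of 49 interferon-responsive genes listed outside the 39, 34 were kept, with median log2 ratios of -0.14 at 24 h and -0.28 at 48 h. At each time 1 of the 34 was at least 2-fold lower than oil and 0 were higher, which for the lower side is about the share over all genes (2.48% at 24 h and 2.71% at 48 h). Trim21, an antibody receptor of the cytosol and ubiquitin ligase, read 50.8 at tamoxifen 48 h, 25.5 at tamoxifen 24 h and 55.4 on oil. That pattern rests on 1 probe set of Trim21, since its other kept one had log2 ratios of -0.34 at 24 h and -0.91 at 48 h. Trim30a read 23, 39.9 and 48.3, with a log2 ratio to oil of -1.07 at 48 h. Its other kept probe set had only -0.51 there. The brightest, Ifitm3, which blocks viral entry, read 887, 1116 and 1051. Of 20 antigen presentation genes, 16 were kept and 0 were 2-fold different from oil on their brightest probe sets. Over all genes 2.35% were higher and 2.48% lower at 24 h, and 3.72% and 2.71% at 48 h. Medians of the 16 were -0.09 at 24 h and -0.31 at 48 h. Probe sets of the class I genes disagreed widely: the 7 kept for H2-D1 had log2 ratios to oil of -1.37 to 5.67 at 24 h and -0.60 to 3.98 at 48 h, and the 4 kept for H2-K1 had -1.39 to 1.01 and -1.24 to 0.09. H2-Eb1, a class II chain, read 75.2 at 48 h and 167 at 24 h, 2.21-fold lower, against 143 on oil. These lists were chosen with earlier results of these data known.

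Of 13 genes that restrain interferon signalling, 12 were kept, and 2 were at least 2-fold lower at 24 h and 1 at 48 h, against 2.48% and 2.71% of all genes. Their median log2 ratios were -0.33 at 24 h, -0.09 at 48 h and 0.31 for tamoxifen 48 h over 24 h. Socs3, an inhibitor of cytokine receptors, read 33.6 at tamoxifen 48 h, 55.1 at tamoxifen 24 h and 117 on oil, 3.49-fold and 2.13-fold lower. Among the other Socs3 probe sets kept, the highest log2 ratios were 0.09 at 24 h and -0.01 at 48 h. Irf2, which competes with Irf1, read 103 at 48 h, 49.1 at 24 h and 103 on oil. Tnfaip3 (A20) read 73.2, 35.7 and 57.8. Irf2 and Tnfaip3 were each at least 2-fold higher at tamoxifen 48 h than at 24 h.

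**Figure D5:**
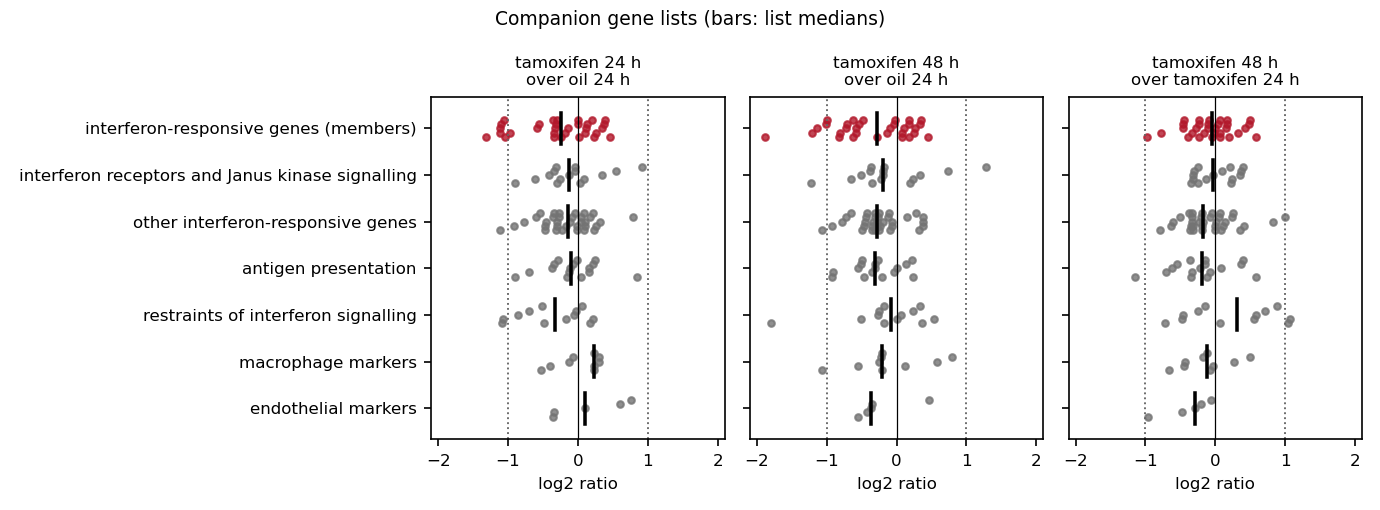
Log2 ratios of kept genes in the interferon-responsive set (red) and in companion lists and cell markers (grey), with a black bar at each list's median and dotted lines at 2-fold. The medians of the interferon-responsive set and of the 4 companion lists of interferon signalling, response, antigen presentation and restraint lie below 0 in both comparisons with oil; those of the macrophage and endothelial markers lie above 0 at 24 h and below it at 48 h.

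Some markers of other cells in muscle also read lowest at tamoxifen 48 h. All 9 macrophage markers were kept, with a summed intensity of 1829 at tamoxifen 48 h, 2154 at tamoxifen 24 h and 2100 on oil; 1 of the 9, Cd163, was at least 2-fold lower at 48 h and 0 were at 24 h. The 9 went both ways, with a median log2 ratio of 0.23 at 24 h and -0.20 at 48 h. Itgam read 23.9, 16.9 and 13.8, Cd68 106, 87.8 and 71.1, and Mrc1 247, 269 and 228, all lowest on oil. The pan-leukocyte marker Ptprc read 61.1, 62.4 and 89.9. The 5 endothelial markers summed to 674, 853 and 847, with 0 past 2-fold and medians of 0.11 at 24 h and -0.37 at 48 h. Of 5 neutrophil markers 3 had a probe set and 2 were kept, S100a8 and S100a9. These read 25.6 and 15.5 at tamoxifen 48 h, 56.3 and 38.1 at tamoxifen 24 h and 83.0 and 63.3 on oil. Their median log2 ratio was -0.65 at 24 h and -1.86 at 48 h. The third, Mpo, was below the filter at 9.97, 1.49 and 11.7, with the 24 h reading below the floor. Its reading at 48 h was 1.17-fold lower than oil and 2.46-fold higher than at 24 h. Of 6 dendritic cell markers 2 were kept, Bst2 itself and Cd209a, which read 18.3, 43.7 and 40.6; the medians of the pair were -0.04 and -0.89. None of the 8 T and NK cell markers or of the 3 B cell markers with a probe set was kept, and the brightest probe sets of Cd3d, Cd4 and Nkg7 were below the floor on all 3 arrays. The part of these cells in the interferon-responsive ratios was not tested.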

How the data were processed

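Per the labels' protocols, biotin-labelled target was made from total RNA that had been cleaned on RNeasy columns after Trizol. The authors deposited linear intensities, with 1 value for each probe set on each array; their summary, background and scaling methods are not given in the sources used here. All 3 columns were used. Of 45101 probe sets, 64 control probe sets were left out. In the platform annotation 34945 of the others had 1 gene, 932 several and 9160 none, and probe sets with several genes were not read. Symbols other than the members' were updated through Entrez identifiers to RefSeq (GRCm38.p6).

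Each array was multiplied by a factor that equalised the medians of the 21804 probe sets with a mean percentile rank of 0.5 or more. Scaled values were floored at 4.05, their 25th percentile, and log2-transformed. Each gene was represented by the kept probe set that ranked highest on average. With 1 array per group no test was made and only a 2-fold size rule was used, so the number of arrays limits the precision. The calculation was tested on simulated data. The 39 members and the companion lists were chosen with earlier results of these data known. The naming rule took every member, and of the companion lists those past 2-fold in any comparison; other companion and marker genes were named after their values were seen. Python 3.11.15, pandas 2.3.3, numpy 2.4.6 and matplotlib 3.10.9 were used, and 9 alternatives were tried.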

Additional observations from a re-analysis of the deposited data

How the results depend on the processing

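No paired analysis was possible because each group is 1 array. For the same reason no array could be left out. For the counts and medians of the 31 genes, 9 alternatives were tried. With the deposited values unscaled, the median of all genes moves to 0.13 at 24 h and -0.18 for tamoxifen 48 h over 24 h. The count at least 2-fold lower than oil at 24 h then fell from 6 to 4 of 31 (1.86% of all genes). At 48 h it was 5 of 31 (3.33% of all genes). Between the tamoxifen arrays 1 gene (Ifi47) was lower, against 249 of 11092 genes, and the median there was -0.21. After quantile normalization 4 of 31 were lower at 24 h (1.87% of all genes) and 5 of 31 at 48 h (2.88%). The median at 24 h was -0.094, and 1 gene was lower between the tamoxifen arrays, against 191 of 11092 genes. With a filter at rank 0.25, which left 35 genes, 8 were at least 2-fold lower than oil at 24 h and 5 at 48 h. The shares over all genes were 7.33% and 6.6%, above the 2.48% and 2.71% of the main setting. In each of the 3 comparisons 1 gene was at least 2-fold higher. Over all genes 4.27% were higher at 24 h, 6.18% at 48 h and 5.79% between the tamoxifen arrays. Between the tamoxifen arrays 1 gene was lower, against 3.85% of all genes. With no filter, which left 37 genes, these counts were the same and each share over all genes was slightly lower. The median at 48 h was then -0.14. At rank 0.75, which left 9 genes, 1 was lower at 24 h and 0 at 48 h, against 0.99% and 1.41% of all genes at that rank. The medians were 0.00017 and -0.10. With 16 added to each value in place of the floor, 1 was lower at 24 h and 1 at 48 h, against 0.64% and 0.90% of all genes. The median at 48 h was -0.16. Iigp1 also came to be at least 2-fold below oil at 48 h on unscaled values (-1.05) and at both times after quantile normalization. The cause of these shifts was not tested.

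Leaving out probe sets of the s and x kinds, raising the floor to the 50th percentile, or taking the median over a gene's probe sets kept each count within 1.5 times and each median within 0.1. No gene past 2-fold changed sign under any of the 9. Of the 10 calls, Ifi202b at 48 h was past 2-fold under all 7 alternatives that gave it a value. Xaf1 fell short on the median of its probe sets, at -0.74 for 24 h and -0.71 for 48 h. Oas1a at 24 h held under 5 of 8, the fewest. With 1 array per group and most genes dim, a 2-fold difference in a single gene cannot be set against variation between mice or arrays.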
